A study of Mus musculus with 6 samples.

Results

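Amino acid transporter genes were examined in muscle stem cells (MuSCs) of injured mouse muscle. They were taken by symbol from 6 solute carrier families (Slc1, Slc3, Slc7, Slc36, Slc38, and Slc43), which gave 42 of the 49671 genes in the files. Female C57BL/6 mice aged 4 to 6 months received barium chloride, a salt that destroys myofibers, into both tibialis anterior muscles. They were given IP injections of resolvin D1 (RvD1), a proresolving lipid mediator, at 100 ng per day (3 mice) or of the ethanol-containing vehicle (3 mice). At day 3, both muscles of a mouse were pooled, cells carrying CXCR4 and β1-integrin but not CD45, CD11b, Ter119, Sca-1, or, per the labels, CD31 were sorted, and each mouse gave 1 library. The comparison asks how RvD1 bears on the MuSC transcriptome during regeneration. Total expected counts per library (RSEM estimates of reads per gene) ranged from 16148026 to 28149176. All 8 MuSC and myoblast markers were expressed in every library, with Pax7 at 4.03 to 8.5 TPM (transcripts scaled to a fixed total per library, a per-length scale) and Itga7 at 458 to 586 TPM, whereas Ptprc, the gene of CD45, was at 0.08 to 1.13 TPM. Markers of other cells were present above Pax7. Lyz2, the highest of 17 leukocyte markers read, was at 17.6 to 61.1 TPM. Col3a1, a marker of fibro-adipogenic cells, was at 401 to 806 TPM. With bulk libraries, fewer cells of a type and less RNA per cell cannot be told apart.

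Amino acids cross membranes mainly through carriers. Members of the Slc7 light chain group carry amino acids only after pairing with a heavy chain of the Slc3 family. Other Slc7 members carry cationic amino acids such as arginine on their own, and the sodium-coupled Slc38 carriers load cells with glutamine and alanine. Cells that leave quiescence and build protein are known to raise several of these carriers, some of them through the transcription factor Atf4, and leucine, arginine, and glutamine inside the cell feed the growth kinase complex mTORC1.

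In these cells the transporter genes were dominated by a few members, and no difference between RvD1-treated and vehicle-treated mice passed the correction over all genes. RvD1 replicate 1 was the highest library for 50% of the tested members and the lowest for 21.4%. Over all genes tested these shares were 30.6% and 29.5%. Of the 42 genes, 28 had enough counts to be tested. None had an adjusted p under 0.05 in edgeR's quasi-likelihood test, and the adjusted p was 0.971 or higher for each. Over all 14494 genes tested, 0% were called. At an unadjusted p under 0.05, edgeR gave 1 member, Slc7a2, which was higher with RvD1 (3.57% of the members tested, against 3.47% of all genes tested). By direction, the shares over all genes were 1.83% higher and 1.64% lower. DESeq2 also gave 0 members past the adjusted threshold and 2 at an unadjusted p under 0.05, Slc7a2 and Slc7a8, where 3.27% of all genes had such a p. The groups did not overlap for 3 members, all higher with RvD1 (10.7%), and this was the case for 9.62% of all genes tested, 4.8% higher and 4.83% lower. Log2 fold changes (RvD1 against vehicle) were above 0 for 21 members (75%, against 53.5% of all genes tested) and below 0 for 7, with a median of 0.08 against 0.01 over all genes tested. The median was 0.01 without RvD1 replicate 1 and 0.03 without vehicle replicate 2. Of the 28 values, 23 lay within 0.3 of 0, and the median absolute value was 0.16, against 0.13 over all genes tested.

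**Figure D1:**
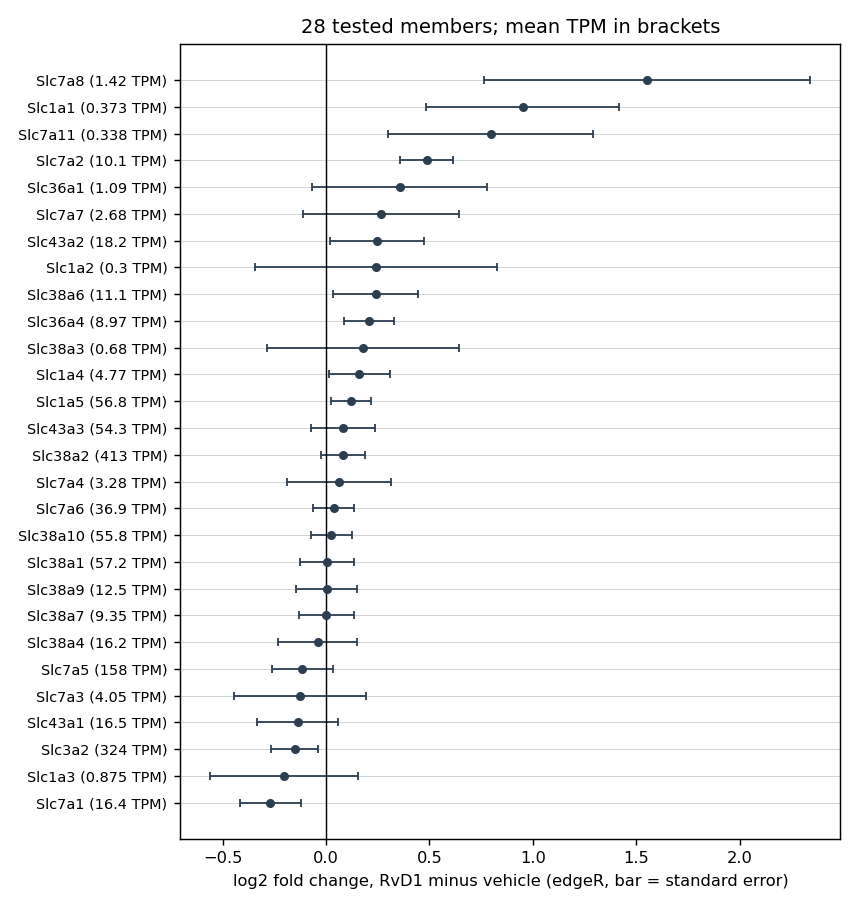
Log2 fold change (x axis, RvD1 minus vehicle, from edgeR) of the 28 tested amino acid transporter genes, with bars of 1 standard error and the mean TPM over 6 libraries beside each symbol. The values run from −0.27 for Slc7a1 to 1.55 for Slc7a8, whose bar is the widest, and Slc7a2 at 0.49 has a narrow bar.

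Levels between genes were compared as TPM. Slc38a2, which encodes the sodium-coupled carrier SNAT2 of small neutral amino acids, was the highest at 413 TPM on average over the 6 libraries (369 to 465). It was followed by the heavy chain gene Slc3a2 at 324 TPM (276 to 345) and by Slc7a5, its light chain for leucine and other large neutral amino acids, at 158 TPM (123.2 to 174). The ranges of these genes did not overlap with each other or with the next gene, and together they held 69.1% of the summed TPM of all members. Slc38a1, Slc1a5, Slc38a10, and Slc43a3 came next, with means between 54.3 and 57.2 TPM, and their ranges overlapped, so that their order was not resolved. Slc7a6 was at 36.9 TPM (27.2 to 45.9) and overlapped with the lowest values of Slc43a3. Below it, 9 genes from Slc43a2 (18.2 TPM) to Slc36a4 (8.97 TPM) overlapped with their neighbors in the order. In all, 23 members had a mean of at least 1 TPM and 17 a mean of at least 5 TPM. The summed TPM of the members was 1323, 1372, and 1300 with RvD1, and 1294, 1251, and 1241 with vehicle, in the order of the replicate numbers, which all values per library follow. The RvD1 sums were all higher on this scale. TPM was also shifted toward RvD1 over all genes tested. Their median log2 fold change was 0.08 from log2(TPM + 1), against 0.01 in edgeR. Summed CPM (counts scaled to library size with TMM factors, not per length) overlapped, at 2463 to 2752 in RvD1 libraries and 2513 to 2550 in vehicle libraries.

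**Figure D2:**
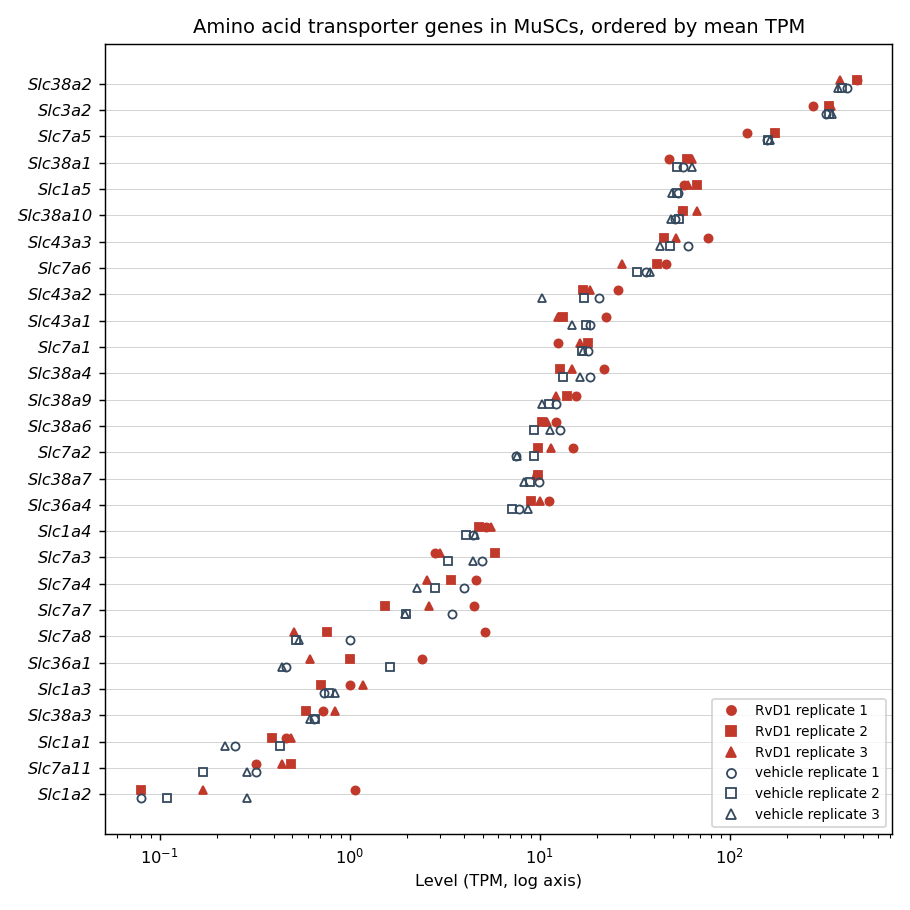
TPM (x axis, log scale) of the 28 tested members in each of the 6 libraries, ordered by mean TPM from top to bottom, with filled red symbols for RvD1, open dark symbols for vehicle, and 1 shape per replicate number. Slc38a2, Slc3a2, and Slc7a5 stand clear of the rest at the top, and RvD1 replicate 1 lies away from the other libraries for Slc7a8.

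Among the heavy chains, Slc3a2 (4F2hc or CD98, chromosome 19, 8706882 to 8723369 on GRCm38) was expressed and Slc3a1 (rBAT, the heavy chain of kidney and gut) was close to background. Slc3a2 was at 243, 310, and 305 CPM with RvD1 and at 296, 326, and 332 CPM with vehicle. RvD1 replicate 1 was the lowest library, and the other RvD1 libraries lay within the vehicle range. The log2 fold change was −0.15 (standard error [SE] 0.11, edgeR unadjusted p = 0.211), and −0.05 without RvD1 replicate 1. Slc3a1 had at most 11 expected counts in a library (5.7, 1.44, and 4.85 with RvD1 and 5.77, 11 and 2.89 with vehicle) and was not tested. It shares 601 of its 2271 exon bases with Prepl on the opposite strand, so a part of these reads cannot be assigned with certainty.

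Of the 10 light chain genes, 5 were tested. Slc7a5 (LAT1, chromosome 8, 121881150 to 121907694), which carries leucine and other large neutral amino acids, was at 245, 368, and 356 CPM with RvD1 and at 333, 356, and 360 CPM with vehicle. Its low value in RvD1 replicate 1 matched that of Slc3a2, and without this library the log2 fold change of −0.11 (SE 0.15) turned to 0.05. The ratio of Slc7a5 to Slc3a2 TPM was 0.492 ± 0.0395 (SD, n = 3) with RvD1 and 0.482 ± 0.0108 (SD, n = 3) with vehicle, a difference smaller than the spread. Slc7a6 (y+LAT2), which exchanges cationic for neutral amino acids, was among the steadiest members in CPM. It was at 51.1, 49, and 45.2 CPM with RvD1 and 46.7, 45.8, and 49.1 CPM with vehicle (log2 fold change 0.04, SE 0.10). In TPM it varied more, at 45.91, 41.59, and 27.17 with RvD1 and 36.06, 32.65, and 37.85 with vehicle.

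The other tested light chains were scarce. Slc7a5 made up 77.8% ± 8.22 (SD, n = 3) of the summed TPM of the 5 genes with RvD1 and 80.4% ± 1.28 with vehicle, and Slc7a6 most of the remainder. Slc7a8 (LAT2, chromosome 14, 54722209 to 54781946), a carrier of small and large neutral amino acids, was at 12.1, 1.89, and 1.22 CPM with RvD1 and at 2.48, 1.32, and 1.41 CPM with vehicle. Only RvD1 replicate 1 stood out, and the other RvD1 libraries lay within or below the vehicle values. The log2 fold change of 1.55 (SE 0.79, edgeR unadjusted p = 0.0818) was −0.14 without that library. Slc7a7 (y+LAT1), known from macrophages, kidney, and gut, was at 4.93, 1.93, and 3.11 CPM with RvD1 and 3.53, 2.24, and 2.5 CPM with vehicle, and its log2 fold change of 0.27 (SE 0.38) was −0.14 without RvD1 replicate 1. It shares 232 of its 3315 exon bases with Oxa1l on the opposite strand, which was at 47.4 to 58.3 CPM, so a part of its few reads cannot be assigned with certainty.

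Slc7a11 (xCT, chromosome 3, 49892526 to 50443614), which imports cystine for glutathione synthesis in exchange for glutamate, was at 0.589, 1.64, and 1.5 CPM with RvD1 and at 0.929, 0.46, and 0.76 CPM with vehicle. RvD1 replicates 2 and 3 were above every vehicle library and replicate 1 was within them. The log2 fold change was 0.80 (SE 0.50, edgeR unadjusted p = 0.144), and 1.13 without RvD1 replicate 1. These values rest on 8.05 to 46.5 expected counts per library.

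Among the cationic amino acid transporters, Slc7a2 had the smallest p of all members. Slc7a2 (CAT2, ENSMUSG00000031596, chromosome 8, 40862396 to 40922308), a carrier of arginine and lysine, was at 43.1, 33.2, and 42.7 CPM with RvD1 and at 29, 27.9, and 28 CPM with vehicle. All RvD1 libraries were above all vehicle libraries, which lay close together. Means were 39.7 ± 5.6 CPM (SD, n = 3) and 28.3 ± 0.616 CPM (SD, n = 3), and the log2 fold change was 0.49 (SE 0.13). In edgeR's quasi-likelihood test the unadjusted p was 0.00442 and the adjusted p = 0.971, so the difference did not pass the correction over all genes. Over the 18 alternative settings the log2 fold change ranged from 0.42 to 0.60, with unadjusted p values between 0.000865 and 0.0308 and adjusted p values between 0.196 and 1. In TPM the gene was at 15, 9.76, and 11.4 with RvD1 and 7.54, 9.37, and 7.61 with vehicle, again without overlap. RvD1 replicate 2 was only just above vehicle replicate 2 there, and TPM carries the shift over all genes given above. Gm26584 overlaps 6.95% of its exon bases on the opposite strand and had at most 7.59 expected counts in a library.

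Slc7a1 (CAT1, chromosome 5, 148327410 to 148399904), the widely expressed arginine carrier of growing cells, was the member with the smallest p among those lower with RvD1. It was at 18.5, 25.8, and 23.9 CPM with RvD1 and at 27.1, 25.8, and 29.4 CPM with vehicle. RvD1 replicate 1 was the lowest library, and RvD1 replicate 2 was just above the lowest vehicle library. The log2 fold change was −0.27 (SE 0.15, edgeR unadjusted p = 0.101, adjusted p = 0.971). It was −0.14 without RvD1 replicate 1 and −0.37 without RvD1 replicate 2 (edgeR unadjusted p = 0.0484). The ratio of Slc7a2 to Slc7a1 TPM was 1.2, 0.544, and 0.696 with RvD1 and 0.418, 0.563, and 0.452 with vehicle. This ratio overlapped between the groups because RvD1 replicate 2 lay below vehicle replicate 2. Slc7a3 and Slc7a4, relatives of these carriers, were at 3.3 to 6.57 CPM and 3.96 to 6.11 CPM over the 6 libraries, with log2 fold changes of −0.13 and 0.06. Slc7a4 shares 13.3% of its exon bases with P2rx6 on the opposite strand, which had 13 to 104 counts. A part of its reads therefore cannot be assigned with certainty.

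**Figure D3:**
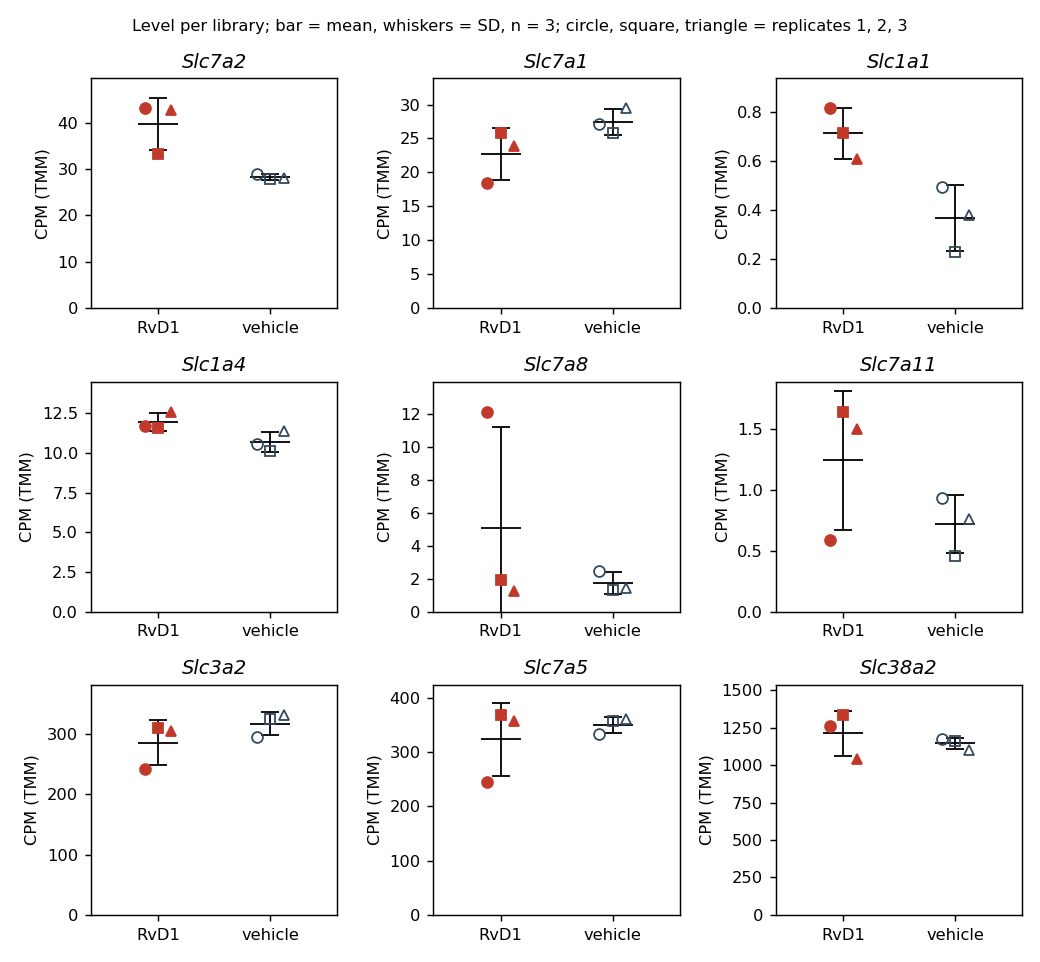
CPM after TMM scaling (y axis, from 0) of 9 members in each RvD1 and vehicle library, with 1 shape per replicate number, the mean as a bar, and the SD (n = 3) as whiskers, of which the lower one of Slc7a8 with RvD1 is cut at 0. The groups are apart for Slc7a2, Slc1a1, and Slc1a4, RvD1 replicate 1 alone is high for Slc7a8 at 12.1 CPM, and the groups overlap in the other panels.

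In the Slc1 family, the neutral amino acid exchangers were expressed and the glutamate carriers were low. Slc1a5 (ASCT2, chromosome 7, 16781340 to 16798274), which exchanges glutamine, was at 81.5, 94, and 82.8 CPM with RvD1 and at 79.3, 76.4, and 81.7 CPM with vehicle. The lowest RvD1 library was just below the highest vehicle library, and the log2 fold change was 0.12 (SE 0.10, edgeR unadjusted p = 0.235). In TPM, which carries the shift over all genes given above, its RvD1 values of 57.7 to 67.3 were all above its vehicle values of 49.5 to 53.2. Slc1a4 (ASCT1, chromosome 11, 20302180 to 20332713), a carrier of alanine, serine, and cysteine, was at 11.7, 11.6, and 12.6 CPM with RvD1 and at 10.6, 10.1, and 11.3 CPM with vehicle. The groups did not overlap in CPM or in TPM, but the gap was narrow (log2 fold change 0.16, SE 0.15, edgeR unadjusted p = 0.304).

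Slc1a1 (EAAC1, chromosome 19, 28835049 to 28913960), a glutamate and cysteine carrier, was at 0.815, 0.714, and 0.61 CPM with RvD1 and at 0.495, 0.23, and 0.38 CPM with vehicle. The groups did not overlap in CPM, and the log2 fold change was 0.95 (SE 0.47, edgeR unadjusted p = 0.0726). In TPM they overlapped, since vehicle replicate 2 at 0.43 lay above RvD1 replicate 2 at 0.39. The values rest on 18, 20, and 11 expected counts with RvD1 and 8, 4, and 7 with vehicle, and 31.9% of the exon bases are shared with 4430402I18Rik on the opposite strand, which had 0 to 4 counts. The glial glutamate carriers Slc1a2 and Slc1a3 had means of 0.3 and 0.875 TPM and log2 fold changes of 0.24 and −0.20 (SEs 0.58 and 0.36).

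The letters of the amino acid response element, to which Atf4 is known to bind, were searched in RefSeq promoter windows (GRCm38.p6), which run from 250 bases before to 50 after a gene's start. The search string was TGATGNAA on both strands. It was found in 3.97% of the 32851 windows of all genes and in 4 of the 42 windows of members (9.52%), some of which belong to the same gene. Of the 28 tested members, 20 had at least 1 window, and the string was found for 3 of them, Slc7a11, Slc1a4, and Slc7a7. The stretch that holds the matches, with up to 40 bases on both sides, is shown for each, 5′ to 3′ on the minus strand of the chromosome, the strand of all 3 genes. Capitals mark the matches, which begin 66 and 47 bases before the start of Slc7a11 (the latter on the other strand). They begin 4 bases before that of Slc1a4 (on the other strand), and 141 and 1 bases before 1 start of Slc7a7. Another window of Slc7a7, from a different start, holds its TGATGCAA match 243 bases before that start.
Slc7a11, chr3:50443613-50443719: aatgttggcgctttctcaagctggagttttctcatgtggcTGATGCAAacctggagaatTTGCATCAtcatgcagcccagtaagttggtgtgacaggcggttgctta
Slc1a4, chr11:20332670-20332757: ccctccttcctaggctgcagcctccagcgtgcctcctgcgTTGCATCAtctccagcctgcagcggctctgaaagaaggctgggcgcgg
Slc7a7, chr14:54417898-54418125: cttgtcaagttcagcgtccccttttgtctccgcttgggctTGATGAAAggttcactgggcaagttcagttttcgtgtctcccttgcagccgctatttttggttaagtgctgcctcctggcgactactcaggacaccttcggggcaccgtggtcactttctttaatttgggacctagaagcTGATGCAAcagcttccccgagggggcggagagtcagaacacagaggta
A match is a description of these letters and not of a bound site. Slc38a2, Slc3a2, and Slc7a1 had windows without a match. Slc7a2, Slc7a5, and Slc1a5 were among the tested members without a window, so they were not searched.

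The sodium-coupled system A genes were the most abundant group, at 510 ± 45.6 summed TPM (SD, n = 3) with RvD1 and 464 ± 20.2 with vehicle. Slc38a2 (SNAT2, chromosome 15, 96687392 to 96699730) was at 1262, 1334, and 1043 CPM with RvD1 and at 1172, 1164, and 1104 CPM with vehicle. The RvD1 libraries lay on both sides of the vehicle libraries, and the log2 fold change was 0.08 (SE 0.11). Slc38a1 (SNAT1), a glutamine carrier, was at 110, 148, and 151 CPM with RvD1 and at 131, 133, and 144 CPM with vehicle. Its mean was 136 CPM in both groups, and the lowest library was again RvD1 replicate 1. Slc38a4 (SNAT4), an imprinted gene in the mouse, was at 49.8, 30.7, and 34.2 CPM with RvD1 and at 43.7, 33.1, and 41.1 CPM with vehicle (log2 fold change −0.04, SE 0.19, and −0.28 without RvD1 replicate 1). These 3 genes lie in 1 stretch of chromosome 15, from 96571418 to 97055956.

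Of the other Slc38 genes, Slc38a10 was the highest, at 104, 113, and 128 CPM with RvD1 and at 115, 114, and 111 CPM with vehicle, and its groups overlapped. In TPM, which carries the shift over all genes given above, its RvD1 values of 55.9 to 67.4 were all above its vehicle values of 49 to 54.3. The lysosomal members were present at steady levels. Slc38a9, which senses arginine for mTORC1 at the lysosome, ranged from 15.3 to 19.3 CPM, and Slc38a7, a lysosomal glutamine exporter, from 14.6 to 16.6 CPM. Their log2 fold changes were both within 0.01 of 0 (SEs 0.15 and 0.13). Slc38a6 was at 13.4 CPM in RvD1 replicate 1 and between 8.22 and 9.45 CPM elsewhere.

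The facilitated carriers of the Slc43 family overlapped between the groups. Slc43a3, which carries purine nucleobases, was at 100, 68.8, and 70.7 CPM with RvD1 and at 80.7, 77.2, and 68.3 CPM with vehicle. RvD1 replicate 1 was the highest, and without it the log2 fold change of 0.08 (SE 0.15) was −0.11. Slc43a2 (LAT4), a carrier of branched-chain amino acids and phenylalanine, was at 69.1, 48.1, and 50.7 CPM with RvD1 and at 61.2, 47.9, and 32.4 CPM with vehicle, where vehicle replicate 3 was the lowest. The log2 fold change was 0.25 (SE 0.23). It was 0.07 without RvD1 replicate 1, 0.48 without vehicle replicate 1, and 0.04 without vehicle replicate 3. It shares 9.18% of its exon bases with Gm45606 on the opposite strand, which had 21.6 to 52.4 counts. Slc43a1 (LAT3), with the same substrates, was at 29.3, 19.8, and 17.5 CPM with RvD1 and at 27.5, 23.7, and 22.2 CPM with vehicle, and the RvD1 libraries lay on both sides of the vehicle libraries. Its log2 fold change was −0.14 (SE 0.20) and −0.38 without RvD1 replicate 1 (edgeR unadjusted p = 0.0215).

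In the proton-coupled Slc36 family, Slc36a4 (PAT4, chromosome 9, 15709738 to 15743361), a carrier of proline and tryptophan, was at 39.1, 33.6, and 36.6 CPM with RvD1 and at 31, 28.6, and 34.9 CPM with vehicle. Only vehicle replicate 3 reached into the RvD1 values, and the log2 fold change was 0.21 (SE 0.12, edgeR unadjusted p = 0.116). In TPM, which carries the shift over all genes given above, its RvD1 values of 9.01 to 11.2 were all above its vehicle values of 7.11 to 8.72. Slc36a1, a lysosomal exporter of small neutral amino acids, ranged from 0.815 to 2.4 CPM (log2 fold change 0.36, SE 0.42).

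RvD1 replicate 1 was often the highest or the lowest library, for the members and over all genes tested. It was the highest of the 6 libraries for 14 of the 28 tested members (50%) and the lowest for 6 (21.4%). Over all genes tested it was the highest for 30.6% and the lowest for 29.5%. The members at their lowest there were Slc3a2, Slc7a5, Slc7a1, Slc38a1, Slc7a3, and Slc38a10. Those at their highest there included Slc7a8, Slc7a7, Slc43a1, Slc43a2, Slc43a3, Slc38a4, Slc38a6, and Slc7a2. In the same library, the 20 cytosolic aminoacyl-tRNA synthetases had a mean of 7.28 log2 CPM (prior count 0.5), against 7.55 to 7.75 elsewhere. Of the 8 MuSC and myoblast markers, Myod1 was lowest there in TPM (239, against 325 to 470). Pax7, Myf5, and Vcam1 were highest there in TPM and in CPM, and Myog and Cdh15 were neither. Itga7 and Des were neither in TPM. In CPM, Myod1, Itga7 (830, against 846 to 1046), and Des (830, against 884 to 1096) were all lowest there. The mean of the 8 was 8.56 log2 CPM there, against 8.36 to 8.54 elsewhere. Without this library the members at an unadjusted p under 0.05 in edgeR were Slc7a2, Slc43a1, and Slc7a11, where 4.33% of all genes tested had such a p. Groups did not overlap for 7 members in that fit, and for 20% of all genes tested. The spread within groups was larger for low members, with a median SD of 0.41 (log2 CPM) for the 11 tested members under 5 TPM and 0.15 for the 17 above.

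**Figure D4:**
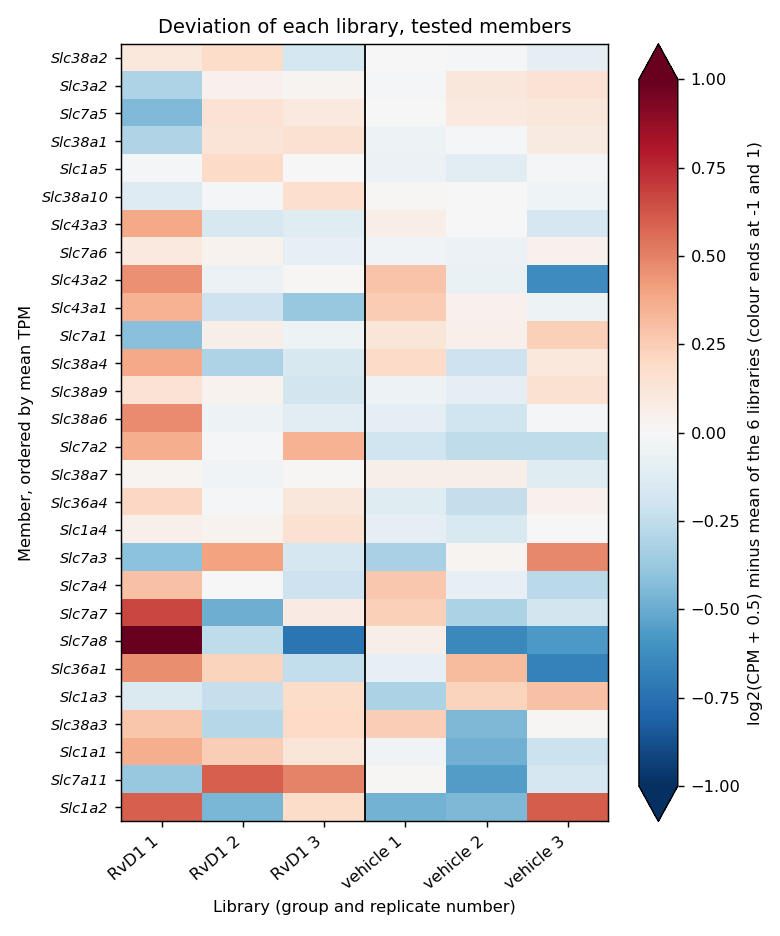
Deviation of log2(CPM + 0.5) from the mean of the 6 libraries (color scale, ends at −1 and 1) for the 28 tested members, in order of mean TPM from top to bottom, and for the RvD1 and vehicle libraries from left to right. The column of RvD1 replicate 1 holds 14 of the highest and 6 of the lowest values, and Slc7a2 is above its mean in RvD1 replicates 1 and 3 and below it in all 3 vehicle libraries.

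Some transporters are known from other cells of muscle, so markers of these were read beside them. The 17 leukocyte markers summed to 41.8 to 56.8 CPM with RvD1 and 57.5 to 99.2 CPM with vehicle. Of the 16 tested, 15 were lower with RvD1, where 53.5% of all genes tested were higher. In edgeR, 4 of them (Ctss, Lyz2, C1qb, and Tyrobp) were lower at an unadjusted p under 0.05, against 1.64% of all genes tested. None had an adjusted p under 0.05. Groups did not overlap for 4 of the 16, all lower, against 4.83% of all genes tested. Of 9 neutrophil markers, 5 (Ly6g, S100a9, Elane, Ngp, and Retnlg) were at 0 counts in every library. The 10 endothelial markers summed to 15.3 to 32 CPM with RvD1 and 14.1 to 44.8 CPM with vehicle. The 6 fibro-adipogenic markers summed to 3219, 1554, and 2236 CPM with RvD1 and 1990, 1854, and 2045 CPM with vehicle, and 5 of 6 were higher with RvD1. The other, Ly6a (the gene of Sca-1, which the sort selects against), was lower without overlap (log2 fold change −0.62, edgeR unadjusted p = 0.0141, adjusted p = 0.971). The 5 Schwann cell markers summed to 60, 29, and 37.5 CPM with RvD1 and 30.6, 26.8, and 24 CPM with vehicle, and all 5 were higher. In edgeR, 1 of them, Mbp, had an unadjusted p under 0.05, against 1.83% of all genes tested higher at such a p. Its log2 fold change was 0.64 (SE 0.22, edgeR unadjusted p = 0.0195, adjusted p = 0.971). Groups did not overlap for Mbp alone, where 4.8% of all genes tested were higher without overlap. The 5 mature myofiber markers summed to 438, 345, and 678 CPM with RvD1 and 355, 501, and 398 CPM with vehicle. Of these, 4 were higher and 1 lower. The 6 red cell markers summed to 3.08, 30.9, and 8.27 CPM with RvD1 and 10, 26.3, and 19.5 CPM with vehicle. The 3 of these that were tested were all lower. Neither list held an unadjusted p under 0.05 in edgeR. None of the leukocyte, endothelial, fibro-adipogenic, Schwann cell, myofiber, or red cell markers was at 0 in every library. The fibro-adipogenic and Schwann cell sums were highest in RvD1 replicate 1, the library with the high Slc7a8, and their part in that value was not tested. RvD1 replicate 2 had the lowest fibro-adipogenic sum of all libraries. Its Slc7a2 level of 33.2 CPM was the lowest of the RvD1 libraries and above every vehicle library, and within RvD1 the order of the Slc7a2 levels was that of these sums. Their part in the Slc7a2 difference was not tested.

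Genes around amino acid supply were read from lists. No gene of these lists had an adjusted p under 0.05 in edgeR, where 0% of all genes tested did. Of 22 genes of the Atf4 amino acid response, 7 were higher and 15 lower with RvD1, with a median log2 fold change of −0.11 against 0.01 over all genes tested, and the median was 0.02 without RvD1 replicate 1. None had an unadjusted p under 0.05 in edgeR. Atf4 itself was at 272, 324, and 287 CPM with RvD1 and at 326, 329, and 333 CPM with vehicle. Its groups did not overlap (log2 fold change −0.16, SE 0.09, edgeR unadjusted p = 0.115). This held for no other gene of the 22, and for 9.62% of all genes tested. Psph, an enzyme of serine synthesis, had the smallest p among those lower (−0.32, SE 0.16), and Vldlr, a lipoprotein receptor, among those higher (0.23, SE 0.19).

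Of the 20 cytosolic aminoacyl-tRNA synthetases, which load transfer RNAs, 4 were higher and 16 lower with RvD1, with a median of −0.07 that was 0.06 without RvD1 replicate 1. None had an unadjusted p under 0.05 in edgeR. Hars (histidine, −0.18, SE 0.13) had the smallest p among those lower and Cars (cysteine, 0.03, SE 0.14) among those higher. Of the 34 genes that relay amino acids to mTORC1, 19 were higher and 15 lower, with a median of 0.02 and none at an unadjusted p under 0.05. Tfeb, a transcription factor of lysosomal genes, was at 5.39, 5.39, and 5.99 CPM with RvD1 and at 3.47, 3.97, and 4.78 CPM with vehicle, without overlap (log2 fold change 0.45, SE 0.22, edgeR unadjusted p = 0.067). Gatsl3, which encodes the arginine sensor Castor1, was at 1.36 to 1.61 CPM with RvD1 and 1.73 to 2.61 CPM with vehicle, also without overlap (−0.50, SE 0.31). Tfeb and Gatsl3 were the only genes of the 34 without overlap, where 9.62% of all genes tested had none.

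Of the 20 genes of amino acid use, 18 were tested, 7 higher and 11 lower. Gpx4, a glutathione-dependent peroxidase, was the only one of the 18 at an unadjusted p under 0.05 in edgeR, where 3.47% of all genes tested had such a p. It was at 154, 150, and 155 CPM with RvD1 and at 171, 183, and 173 CPM with vehicle, without overlap (log2 fold change −0.20, SE 0.08, unadjusted p = 0.0352, adjusted p = 0.971). Groups did not overlap for 3 of the 18 (Gpx4, Got2, and Arg2, all lower), and for 9.62% of all genes tested. Pcx, or pyruvate carboxylase, had the smallest p among those higher (0.28, SE 0.23). Of 27 other amino acid carriers, 17 were tested, 9 higher and 8 lower, with none at an unadjusted p under 0.05. The taurine carrier Slc6a6, named after its values were seen, was at 494, 387, and 374 CPM with RvD1 and 396, 391.7, and 361 CPM with vehicle, so that only RvD1 replicate 1 stood above the vehicle libraries. Slc25a29 (0.46, SE 0.32) and Slc17a7 (−0.50, SE 0.47) had the smallest p in the respective directions.

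The 14 members that were not tested had at most 11 expected counts in a library. Slc7a9, Slc7a12, Slc36a3, and Slc38a8, known from kidney, testis, or eye among other tissues, had 0 counts in all 6 libraries. The light chains Slc7a10, Slc7a13, and Slc7a15 had at most 1 count. Slc38a5, a system N glutamine carrier, had 1, 0, and 0 counts with RvD1 and 3, 5, and 5 with vehicle, of which the RvD1 values are under the floor of 3 counts. Slc36a2 had 0 counts with RvD1 and 3, 3, and 0 with vehicle. The remaining 5 untested members, Slc3a1, Slc1a6, Slc1a7, Slc7a14, and Slc38a11, reached 3 to 11 counts. Without a count filter, edgeR gave Slc38a5 and Slc36a2 an unadjusted p under 0.05 and neither an adjusted p under 0.05. At this depth no difference was detectable for the other untested members.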

How the data were processed

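RNA was measured by RNA-Seq in MuSCs sorted from 6 mice. Single-ended reads had been placed on mm10 by the authors using STAR (2.5.0a in the submitters' processing notes), and RSEM, whose version is not given in the sources used here, estimated gene levels. The deposited expected counts are these estimates without scaling. In the deposited TPM values, the authors' use of RSEM corrects for transcript length and sets every library to the same sum. FPKM values were not used. A stray header line was removed, which left 49671 genes. Replicates were taken from the sample labels, and the library kit does not mark strand.

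Expected counts were rounded to whole numbers and tested across all genes with edgeR 4.0.16 in R 4.3.3, with TMM factors, filterByExpr, and non-robust quasi-likelihood tests. Benjamini-Hochberg adjustment ran over the 14494 genes tested, with a threshold of 0.05. Standard errors were derived from fold changes and F statistics. CPM values are rounded counts scaled to library size with TMM factors, and floors of 3 counts lay between 0.107 and 0.186 CPM. These floors reflect counting error only. Levels were compared between genes only as TPM. Groups were said not to overlap when all RvD1 values lay on one side of all vehicle values.

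The study's own limma-voom procedure with surrogate variables removed (limma 3.58.1, sva 3.50.0, 1 variable removed, 26518 genes), DESeq2 1.42.0, other scalings and filters, log2 of TPM with a pseudocount of 1 or 0.1, a replicate block, and each library left out in turn were alternatives. Tools were tested on simulated counts of 14514 genes for this comparison with 200 changed 4-fold: edgeR recovered 172 with 10 false calls, DESeq2 174 with 31, and limma-voom 171 with 14. With surrogate variables removed, limma-voom recovered 162 with 155 false calls among 25469 genes.

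The transporters and the gene lists were chosen with earlier results of these data known. Values are given per library for the 12 tested members with the highest mean TPM, those with an unadjusted p under 0.05, the 4 with the smallest p in each direction, those whose groups did not overlap, Slc3a2 with its tested light chains, and untested members reaching 10 counts. From each list, the gene with the smallest p in each direction is named. Other genes were chosen after their values were seen. Gene positions are from GENCODE M21, and promoter windows and their coordinates are RefSeq's on GRCm38.p6.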

Additional observations from a re-analysis of the deposited data

How the results depend on the processing

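No member had an adjusted p under 0.05 in edgeR or under any of the 18 alternatives, which include DESeq2 and limma. The number of members at an unadjusted p under 0.05, which was 1, became 2 with DESeq2 (3.27% of all genes), 2 with limma on log2(TPM + 1) or log2(TPM + 0.1) (4.95% and 4.91%), 4 of 38 without a count filter (4.29%), and 7 of 38 with limma-voom and surrogate variables removed (11.2%). Among fits that left out 1 library it was 1 to 3, with 3 without RvD1 replicate 1 or 2 (4.33% and 6.83% of all genes), 2 without RvD1 replicate 3 (4.61%), and 1 without any 1 vehicle library (1.9% to 3.27%). The 7 genes were Slc38a5, Slc7a2, Slc36a2, Slc1a1, Slc7a11, Slc1a5, and Slc7a1. Slc7a2 was among these members under each alternative. The number of members whose groups did not overlap, which was 3, became 5 with upper quartile factors (9.72% of all genes), 5 with either TPM pseudocount (11.4%), and 11 of 38 with surrogate variables removed (18%), and was 4 to 7 with 1 library left out (7 without RvD1 replicate 1, 5 without RvD1 replicate 2, and 6 without vehicle replicate 1 or 3), when 15.2% to 23.3% of all genes did not overlap. The median log2 fold change of 0.08 was 0.19 with log2(TPM + 0.1) and 0.01 to 0.14 with 1 library left out. TPM moved the median of all genes tested from 0.01 to 0.08 and 0.09. A cutoff of 0.5 or 5 TPM in place of 1 gave 25 or 17 expressed members in place of 23. The causes of these shifts were not tested.

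Each replicate number occurs with RvD1 and with vehicle, in separate mice. After subtraction of group means, libraries with the same number correlated across genes at 0.374, 0.0111, and 0.184 for replicates 1, 2, and 3, and RvD1 replicate 2 correlated best with vehicle replicate 3. With the replicate block in edgeR, 1 member (Slc7a2, log2 fold change 0.48) had an unadjusted p under 0.05 and 0 an adjusted p under 0.05.

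Signs turned for some members under these settings. The log2 fold change of Slc38a1 was −0.00034 with DESeq2 and with its size factors in edgeR, −0.00758 with the block, −0.00853 with limma-voom without surrogate variables, and −0.0178 and −0.0182 with the TPM pseudocounts of 1 and 0.1. That of Slc38a4 was 0.0203 with either pseudocount. With 1 library left out, the ranges that crossed 0 were −0.0744 to 0.138 for Slc38a1, −0.277 to 0.0957 for Slc38a4, −0.219 to 0.0511 for Slc7a5, −0.0592 to 0.0925 for Slc38a10, −0.112 to 0.18 for Slc43a3, −0.00284 to 0.0829 for Slc7a6, −0.385 to 0.00329 for Slc43a1, −0.137 to 2.005 for Slc7a8, and −0.142 to 0.549 for Slc7a7. Leaving out RvD1 replicate 1 gave the negative ends for Slc38a4, Slc43a1, Slc43a3, Slc7a6, Slc7a8, and Slc7a7 and the positive ends for Slc7a5, Slc38a1, and Slc38a10.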
